A study of Mus musculus with 36 samples.

Results

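Livers of mice that ate a high-fat diet with lingonberry, blackcurrant or bilberry were compared, as a pool, with livers of mice that ate the same amount of fat without a berry, to find gene changes that the 3 Nordic berries share. The arrays were chosen by the labelled diet: 18 berry arrays, with each berry weighted equally, and 6 high-fat arrays, which make 24 of the 36 arrays in the study. All mice were male, 20 weeks old and on their diet for 13 weeks, and were of the strain C57BL/6J by their sample labels and C57BL/6JBomTac by the design. The high-fat diet drew 45% of its energy from fat, and each berry diet was that diet with 20% of its weight as the freeze-dried fruit. The remaining arrays came from a diet with açai at the same 20% and from a low-fat diet (10% fat by energy), and they enter here as points of reference. Each of the 6 chips carried 1 array per diet at a position fixed for that diet, so effects of position and of diet cannot be told apart.

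The 3 fruits are known for their anthocyanins and other polyphenols. The liver stores surplus dietary fat as droplets coated by perilipins and CIDE proteins, releases glucose through glucose-6-phosphatase, and clears foreign compounds with cytochrome P450 enzymes that the nuclear receptors CAR and PXR control. In inflammation its hepatocytes also secrete acute phase proteins such as serum amyloid A and lipocalin 2.

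Each array held RNA of 1 liver, and 14240 to 15670 of its 45281 probes were detected. Values are normalized log2 levels, differences are on the log2 scale, each with its standard error (SE) from a limma fit with chip as a block, and a probe is called when its Benjamini-Hochberg adjusted p is below 0.05 among 17907 probes tested. Hepatocyte markers had a summed log2 level of 15.77 to 16.02 on every berry and high-fat array, and none of the 6 was called. None of the 11 tested pancreatic acinar markers was called either, but their mean log2 level was 9.41 on lingonberry replicate 2, 7.95 on bilberry replicate 2 and 7.20 on blackcurrant replicate 3, against at most 5.06 on any high-fat array. With this mean as a covariate 188 probes were called, and without lingonberry replicate 2 there were 194. In a whole liver a lower level can mean fewer cells of a type or less RNA per cell, which cannot be told apart.

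Against high fat, 234 of 17907 probes (1.31%) were called on the berries as a pool. They comprised 99 higher probes (0.553%), naming 80 genes, and 135 lower probes (0.754%), naming 108 genes, while 31 called probes had no single gene symbol. The changes were small for the most part: 118 of the 234 differed by less than 0.5 on the log2 scale and 17 by more than 1. The median difference was 0.45 among higher and -0.51 among lower probes, beside 0.0035 over all probes tested. The adjusted p was 0.0496 for the last probe called and 0.0515 for the first one not called. At an unadjusted p below 0.05 there were 2378 probes (13.3%).

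The number of calls depended strongly on single high-fat livers. Without high-fat replicate 2 it was 57, without replicate 5 it was 66, without replicate 3 it was 106 and without replicate 4 it was 139, whereas leaving out high-fat replicate 1 or 6 gave 230 and 254. Without the chip as a block 135 probes were called. The berries did not contribute equally either, since the mean of blackcurrant and bilberry gave 85 calls, that of lingonberry and bilberry 362 and that of lingonberry and blackcurrant 320. Single arrays left out in turn were the 6 high-fat arrays, lingonberry replicate 2 and blackcurrant replicate 4. Of 53 called genes named below by rule, 13 kept their call whichever of these 8 was left out, 17 whichever berry was left out, and 8 in every alternative that was run: Cyp2b9, Plin4, Ntrk2, Tceal8, Lrrc28, G6pc, Fbxo21 and Ugt2b35. None of the 53 changed direction in any of them. The paragraphs below do not list every alternative that ended a call.

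**Figure D1:**
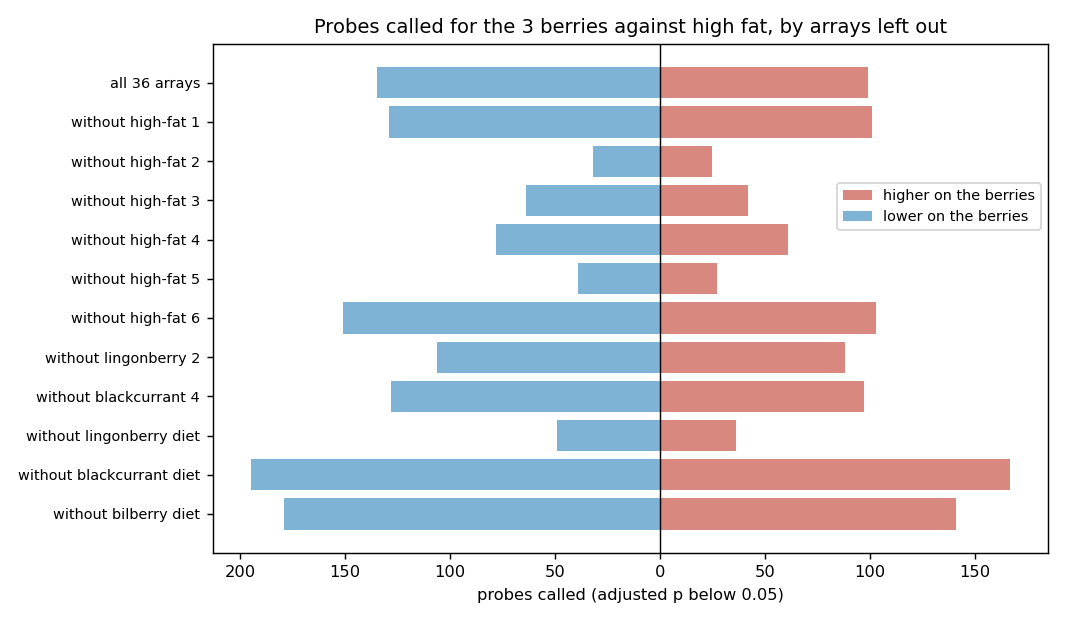
Number of probes called for the 3 berries against high fat (horizontal axis, lower to the left and higher to the right of 0), with all 36 arrays and with a single array or 1 berry diet left out. The count falls from 234 to 57 without high-fat replicate 2 and to 66 without high-fat replicate 5, and to 85 without the lingonberry diet.

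Cyp2b9, a cytochrome P450 gene of the CAR-controlled Cyp2b family that is more active in female than in male mouse liver, fell most and by similar amounts on each berry. Its log2 level was 5.97 to 10.11 (median 8.14) in the high-fat livers, 4.31 to 6.61 (median 4.90) on lingonberry, 4.34 to 6.64 (median 4.75) on blackcurrant and 4.53 to 6.09 (median 5.04) on bilberry. All but 3 of the 18 berry livers lay below the lowest high-fat liver, and every berry liver lay below the high-fat liver of its own chip. The pooled difference was -2.98 ± 0.34 (adjusted p = 1.24e-05), made up of -2.98 on lingonberry, -3.03 on blackcurrant and -2.94 on bilberry, and a difference among the berries was not called (adjusted p = 0.99). Tested as a change present in each berry, from the largest of the 3 p-values, Cyp2b9 was the 1 probe called (0.00558% of those tested) and had an adjusted p of 0.00117. It was detected in all 6 high-fat livers, in 10 of 18 berry livers and in no low-fat liver, so the size of the fall rests partly on values near background: without background correction the difference was -1.72.

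The neighbouring gene Cyp2b13 has an almost identical upstream sequence, and the 2 are shown because a probe for Cyp2b9 could also bind transcripts of such a close relative, which was not tested. The sequences are the 300 bases around the transcript start, from RefSeq in build GRCm38.p6, on the + strand at chr7:26173159-26173458 for Cyp2b9 and chr7:26061245-26061544 for Cyp2b13. Capitals mark the 2 of 300 bases that differ.
Cyp2b9: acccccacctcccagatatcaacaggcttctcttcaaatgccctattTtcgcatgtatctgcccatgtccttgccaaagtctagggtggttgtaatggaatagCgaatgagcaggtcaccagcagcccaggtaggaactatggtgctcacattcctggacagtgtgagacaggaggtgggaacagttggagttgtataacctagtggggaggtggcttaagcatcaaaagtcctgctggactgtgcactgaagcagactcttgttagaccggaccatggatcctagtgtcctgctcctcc
Cyp2b13: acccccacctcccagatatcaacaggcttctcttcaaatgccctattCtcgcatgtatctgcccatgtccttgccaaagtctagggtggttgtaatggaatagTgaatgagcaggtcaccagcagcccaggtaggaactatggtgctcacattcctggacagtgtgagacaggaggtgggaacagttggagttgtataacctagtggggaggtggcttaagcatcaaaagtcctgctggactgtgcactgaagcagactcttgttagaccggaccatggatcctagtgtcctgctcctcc
The same windows of Cyp2b10 and Cyp2b23, compared with that of Cyp2b9 position by position and without alignment, differed at 223 and 224 positions. An inserted base or a shifted start can also give such counts, so they do not measure how far the sequences diverge. Cyp2b23 fell as well, by 1.52 ± 0.28 on the log2 scale (adjusted p = 0.00424; differences of -1.43, -1.45 and -1.67 on lingonberry, blackcurrant and bilberry). Its level was 4.47 to 8.19 (median 6.26) on high fat, where 5 of 6 livers had it detected, and 4.19 to 5.63 on the berries, where 8 of 18 did. The ranges overlapped, but the berry liver was lower in 17 of 18 pairs from the same chip. It was called whichever of the 8 arrays was left out but not without the arrays of chip 2 (adjusted p = 0.0548), and its difference was -0.69 without background correction. Cyp2b10, the classical CAR target, had a difference of -1.20 that was not called (adjusted p = 0.233).

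With each berry set against high fat on its own, 333 probes (1.86%) had an unadjusted p below 0.05 and 1 sign in all 3 comparisons. These comparisons share the 6 high-fat arrays, so they are not independent of each other. Called in all 3 and in 1 direction were 7 probes (0.0391%), all of them lower. A probe without a gene name was among them, and the others belong to Cyp2b9, Plin4, Ntrk2, Tceal8, Lrrc28 and Csnk1g3. Plin4 encodes perilipin 4, a lipid droplet coat protein, and its level was 5.54 to 7.40 (median 6.46) on high fat. On lingonberry it was 4.58 to 5.78 (median 5.48), on blackcurrant 4.45 to 6.16 (median 5.23) and on bilberry 4.35 to 6.37 (median 5.0). Thus 15 of the 18 berry livers were below the lowest high-fat liver, and the pooled difference was -1.26 ± 0.21 (adjusted p = 0.0017). The berry differences of Plin4, at -1.15, -1.22 and -1.40, were not called as unequal (adjusted p = 0.846).

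Ntrk2, the receptor gene for the neurotrophin BDNF, was near background on the berries. It was detected in 5 of 6 high-fat livers, at levels of 4.59 to 6.93 (median 5.87), in no lingonberry liver and in 1 liver each on blackcurrant and bilberry, where levels ran from 4.24 to 4.89. The pooled difference was -1.24 ± 0.20 (adjusted p = 0.0014), and -1.18 with lingonberry at its detection bound. A dimmer probe of Ntrk2 fell by 0.58 (adjusted p = 0.0256). On lingonberry alone Ntrk2 was at least 2.07-fold lower than on high fat. Without background correction the differences of Plin4 and Ntrk2 were -0.57 and -0.48, still called.

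The 3 other genes of this set had smaller and narrower falls. Tceal8, of the transcription elongation factor A-like family, had a level of 7.07 to 8.53 (median 8.05) on high fat and medians of 7.15, 7.15 and 7.24 on lingonberry, blackcurrant and bilberry (pooled difference -0.81 ± 0.13, adjusted p = 0.0014). Lrrc28, which encodes a protein with leucine-rich repeats, went from a median of 7.94 to medians of 7.37, 7.35 and 7.39 (-0.52 ± 0.09, adjusted p = 0.0017), while its dimmer probe gave -0.14 and was not called (adjusted p = 0.662). Csnk1g3, a casein kinase 1 gene, went from 7.88 to 7.58, 7.49 and 7.55 (-0.38 ± 0.07, adjusted p = 0.00435). For Lrrc28 and Csnk1g3 every berry liver was below the high-fat liver of its chip and 16 of 18 were below all high-fat livers. For Tceal8 5 of 18 were. The call of Csnk1g3 was lost without the arrays of chip 2 (adjusted p = 0.0639), and for none of the 8 single arrays.

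**Figure D2:**
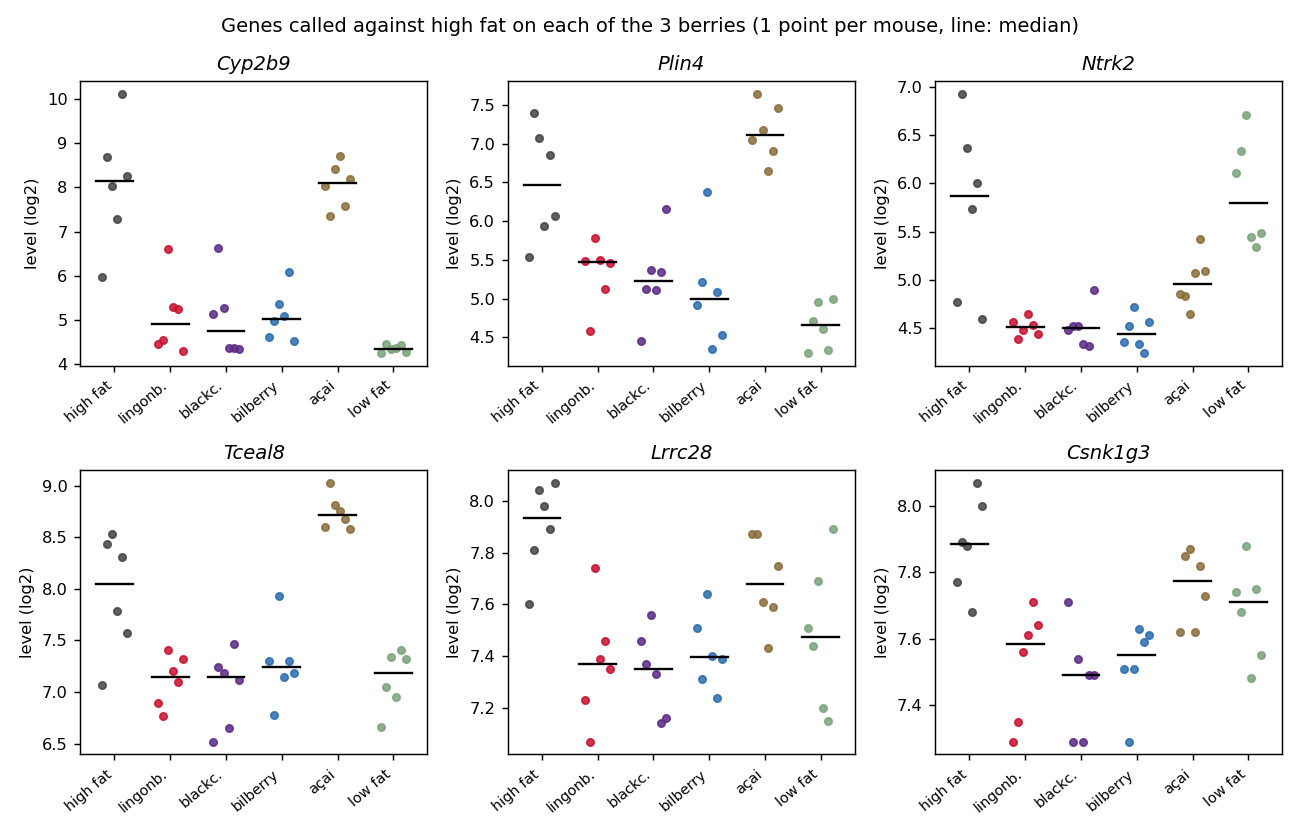
Normalized log2 level (vertical axis) of the 6 named genes called against high fat on each of the 3 berries, with 1 point per mouse and a line at the median of each diet. The lingonberry, blackcurrant and bilberry points lie together with medians below that of high fat, at 4.75 to 5.04 for Cyp2b9 against 8.14. For Tceal8 the ranges overlap, with 5 of 18 berry livers below all high-fat livers.

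Complete separation was rarer. All 18 berry livers lay on 1 side of all 6 high-fat livers for 4 probes (0.0223%), of which 1 had a gene name, Ugt2b35. This glucuronosyltransferase gene had levels of 8.74 to 9.26 on high fat, 9.62 to 10.29 on lingonberry, 9.30 to 9.80 on blackcurrant and 9.43 to 9.65 on bilberry. It rose by 0.63 ± 0.11 (adjusted p = 0.00337). Taking chips one by one, every berry liver was on 1 side of the high-fat liver of its chip for 57 probes (0.318%), and 43 of these were called.

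Genes of lipid handling fell in a small set. Of 21 tested genes of lipid droplets and PPARγ targets none rose and 2 fell, Plin4 and Cidea, with a list median of -0.05. List counts here and below stand beside shares of 0.553% higher and 0.754% lower over all probes, and were not tested against them. Cidea encodes a droplet-associated protein best known from brown fat, and it was detected in 4 of 6 high-fat livers (levels of 4.23 to 7.02, median 5.29) and in 2 of 18 berry livers (4.20 to 5.47). The pooled difference of -0.99 ± 0.23 (adjusted p = 0.0281) became -0.92 with blackcurrant, where no liver had it detected, at its bound. The related Cidec had a difference of -1.14 that was not called (adjusted p = 0.145). The call of Cidea was lost without high-fat replicate 2, 3 or 4 (adjusted p up to 0.168), without the chip block (adjusted p = 0.0608) and without background correction (-0.41, adjusted p = 0.0843).

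Of 21 apolipoprotein and lipoprotein genes 1 rose and 2 fell, with a median of -0.01. Apoa4, whose product travels on lipoproteins and whose expression rises with liver fat in mice, had levels of 10.52 to 12.60 (median 12.07) on high fat. On lingonberry they were 9.76 to 10.81, on blackcurrant 10.19 to 11.47 and on bilberry 10.07 to 11.36, so that 8 of 18 berry livers were below all high-fat livers. Apoa4 fell by 1.20 ± 0.28 on the log2 scale (adjusted p = 0.0283), and its dimmer probes gave -1.10 and -1.10 (adjusted p = 0.0515 and 0.0622). Apoc2, the activator of lipoprotein lipase, fell by 0.31 ± 0.08 (adjusted p = 0.0451), and Apom, a carrier of sphingosine-1-phosphate on HDL, rose by 0.30 ± 0.07 (adjusted p = 0.0399), with a dimmer probe at 0.34 (adjusted p = 0.0543). A dimmer probe of Apoc2 gave -0.3 and was not called (adjusted p = 0.325). The call of Apoa4 was lost without high-fat replicate 2, 3, 4 or 5 (adjusted p up to 0.151), as was that of Apom (up to 0.176), and that of Apoc2 without high-fat replicate 2, 4 or 5, lingonberry replicate 2 or blackcurrant replicate 4 (up to 0.204). Apom and Apoc2 were not called without the chip block (adjusted p = 0.147 and 0.103). None of 25 tested genes of fatty acid and triglyceride synthesis (median -0.05; 8 differed among the berries) and none of 29 of fatty acid oxidation (median 0.02) was called.

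Among genes with a known sex bias in mouse liver, the female-biased list had the lowest median of the 31 lists, -0.53, and the male-biased list the second highest, 0.31. Of 10 tested female-biased genes, from a list of 26, 3 fell, Cyp2b9, Ntrk2 and Hamp2, and none rose. Among the 10, 7 had a negative and 3 a positive difference. Hamp2, a paralog of the hepcidin gene Hamp, had levels of 10.13 to 12.00 (median 10.93) on high fat, and medians of 9.64 on lingonberry, 8.72 on blackcurrant and 9.69 on bilberry. It fell by 1.69 ± 0.32 on the log2 scale (adjusted p = 0.00545) with 13 of 18 berry livers below all high-fat livers, while Hamp itself differed by 0.05 (adjusted p = 0.824). Hamp2 was the 1 gene called among 21 of hepcidin and iron handling (median 0.14). Array signals of the 2 hepcidin genes could overlap, which was not tested.

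Of 24 tested male-biased genes 1 rose and none fell, and 20 had a positive difference. The riser was Cyp4a12a, a fatty acid hydroxylase, with a level of 9.76 to 11.30 (median 10.97) on high fat and medians of 11.39, 11.38 and 11.55 on the berries (0.79 ± 0.19, adjusted p = 0.0305). Its berry differences of 0.78, 0.74 and 0.83 were close to each other. Its close relative Cyp4a12b, with which it may share signal (0.78, adjusted p = 0.0588), Serpina4-ps1 (1.11, adjusted p = 0.0596) and Keg1 (0.40, adjusted p = 0.0596) were just short of the threshold. The call of Cyp4a12a was lost without high-fat replicate 1, 5 or 6 (adjusted p up to 0.17). Hamp2 was called whichever of the 8 arrays was left out and lost its call without the arrays of chip 2 (adjusted p = 0.0561).

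Of 25 tested genes of glucose production and insulin response 2 rose and none fell, 14 had a negative difference, and the median was -0.03. G6pc, the catalytic subunit of glucose-6-phosphatase, had levels of 9.14 to 10.40 (median 9.96) on high fat, 10.90 to 11.94 on lingonberry, 9.78 to 11.16 on blackcurrant and 10.87 to 11.28 on bilberry. All lingonberry and bilberry livers and 4 of 6 blackcurrant livers exceeded the highest high-fat liver, and G6pc rose by 1.11 ± 0.18 (adjusted p = 0.0014; berry differences of 1.47, 0.71 and 1.16). Igfbp2, a growth factor binding protein gene that responds to leptin, rose by 0.85 ± 0.16 at its brighter probe (adjusted p = 0.00599; 1.11, 0.87 and 0.55) and by 0.91 at the other. Its level was 9.24 to 10.58 on high fat and 9.68 to 11.44 on the berries, and its call was lost without high-fat replicate 2 (adjusted p = 0.0532). Other insulin-repressed genes of the list, Irs2 (0.58, adjusted p = 0.058) and Igfbp1 (0.84, adjusted p = 0.0733), were not called, nor were Ppp1r3b, which encodes a subunit that directs a phosphatase to glycogen (-0.63, adjusted p = 0.0549), and the gluconeogenic gene Pck1 (-0.03, adjusted p = 0.955).

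Csad and Cish had the largest rises. Csad, the decarboxylase that makes the precursor of taurine, had levels of 8.92 to 11.09 (median 9.64) on high fat, 11.09 to 12.53 on lingonberry, 9.85 to 11.66 on blackcurrant and 10.45 to 12.00 on bilberry. It rose by 1.38 ± 0.32 (adjusted p = 0.0258) at this probe and by 1.62 at its other tested probe. Its berry differences of 2.09, 0.61 and 1.44 were not called as unequal (adjusted p = 0.0839), and it was the 1 gene called among 18 of sulfur amino acid and taurine metabolism (median 0.00). Its call was lost without high-fat replicate 1, 2 or 5 (adjusted p up to 0.112) and in the mean of blackcurrant and bilberry (adjusted p = 0.213). Cish encodes a feedback inhibitor of STAT5 signalling, and its level was 5.30 to 6.18 on high fat and 5.59 to 6.77 on lingonberry. On blackcurrant it was 5.80 to 10.02 (median 8.64) and on bilberry 5.78 to 9.65 (median 8.76), so that 1 liver of each of these diets stayed in the high-fat range. Cish rose by 1.67 ± 0.39 as a pool (adjusted p = 0.0281), but its differences of 0.13, 2.36 and 2.51 were unequal (adjusted p = 0.00676). Among 16 genes of growth hormone signalling it was the 1 called. Its call was lost without high-fat replicate 1, 2, 3, 4 or 5 (adjusted p up to 0.103) and in the mean of lingonberry with either other berry (up to 0.123).

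Cholesterol synthesis genes shared their sign more than their size. All 17 tested members had a pooled difference of 0 or above, the median of 0.37 was the highest of the 31 lists, and 1 of them passed the test. That gene was Cyp51, lanosterol demethylase, with a level of 7.39 to 8.79 (median 7.71) on high fat and medians of 8.65, 8.50 and 9.26 on lingonberry, blackcurrant and bilberry (0.80 ± 0.19, adjusted p = 0.0276). Its call was lost without high-fat replicate 2, 4, 5 or 6 (adjusted p up to 0.138) and in the mean of lingonberry and blackcurrant (0.157). For 9 of the 17 members the berries differed from each other, among them Nsdhl, another enzyme of the late pathway, with differences of 0.49 on lingonberry, 0.13 on blackcurrant and 1.28 on bilberry (adjusted p = 0.00736). A dimmer probe of Nsdhl, given here after its value was seen, rose by 0.56 (adjusted p = 0.0484). Across all probes 332 (1.85%) were called as differing among the berries, 175 without blackcurrant replicate 4 and 188 without lingonberry replicate 2, and 61 without the arrays of chip 5.

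Other leading rises came from genes with varied roles. Slco2a1, a prostaglandin transporter, went from 6.78 to 7.20 on high fat to 7.66 to 8.88 on lingonberry, 6.98 to 7.87 on blackcurrant and 7.40 to 8.05 on bilberry (0.80 ± 0.16, adjusted p = 0.00823), and every berry liver exceeded the high-fat liver of its chip. The same held for Fbxo21, a subunit of ubiquitin ligases (0.67 ± 0.10, adjusted p = 0.00127), and for Unc13b, a gene of vesicle release (0.67 ± 0.14, adjusted p = 0.0162). The berry differences of Fbxo21 were 0.89, 0.47 and 0.64, and its level was 8.38 to 9.11 on high fat and 8.92 to 9.90 on the berries. Sox12, a transcription factor gene, rose by 0.76 ± 0.16 (adjusted p = 0.0118) with unequal differences of 1.3, 0.42 and 0.58 (adjusted p = 0.0185), and Slco2a1 was unequal too (adjusted p = 0.0272). The other Sox12 probes, dim at mean levels of 4.54 and 4.51, gave 0.04 and -0.07 and were not called (adjusted p = 0.869 and 0.812). Adck5, a putative mitochondrial kinase gene, rose by 0.66 ± 0.14 (adjusted p = 0.0142). The call of Slco2a1 was lost without high-fat replicate 2 or 5 (adjusted p up to 0.0568), that of Sox12 without replicate 2 (0.062), that of Unc13b without replicate 5 (0.0778) and that of Adck5 without replicate 2, 5 or 6 (up to 0.0744). In the mean of blackcurrant and bilberry Slco2a1, Sox12, Unc13b, Adck5 and Igfbp2 were not called (adjusted p of 0.0531 to 0.219), while Fbxo21 and G6pc were.

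For 3 other leading rises the probe matters as well. Abcd3, a peroxisomal transporter of fatty acids, rose by 0.77 ± 0.16 at a probe of mean level 5.82 (adjusted p = 0.0122), whereas its 3 brighter probes gave 0.08, 0.26 and 0.23 and none was called. Egfr, the receptor for epidermal growth factor, rose by 0.68 ± 0.18 and 0.67 at 2 probes (adjusted p = 0.0469 and 0.0462) and differed by 0.13 and 0.07 at 2 brighter ones (adjusted p = 0.893 and 0.959). Gstp1, a glutathione transferase, rose by 0.76 ± 0.19 at its dimmest probe (adjusted p = 0.0396) and had 0.40 and 0.52 at the brighter ones (adjusted p = 0.0718 and 0.0628). The call of Abcd3 was lost without high-fat replicate 2 (adjusted p = 0.0591), that of Egfr without replicate 2, 3, 4, 5 or 6 (up to 0.207) and that of Gstp1 without replicate 2, 3, 5 or 6 (up to 0.189), and those of Egfr and Gstp1 also without lingonberry replicate 2, without blackcurrant replicate 4 (up to 0.0571) and without the chip block (0.0823 and 0.0624). Among 28 NRF2 targets and glutathione genes, counted at their brightest probe, 1 fell, Gstm2 (-0.56 ± 0.14, adjusted p = 0.0398), none rose, the median was 0.10 and 10 differed among the berries. The call of Gstm2 was lost without high-fat replicate 2, 3, 4 or 5 (adjusted p up to 0.194). Its dimmer probes gave -0.49 and -0.49 and were not called (adjusted p = 0.0515 and 0.0987).

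**Figure D3:**
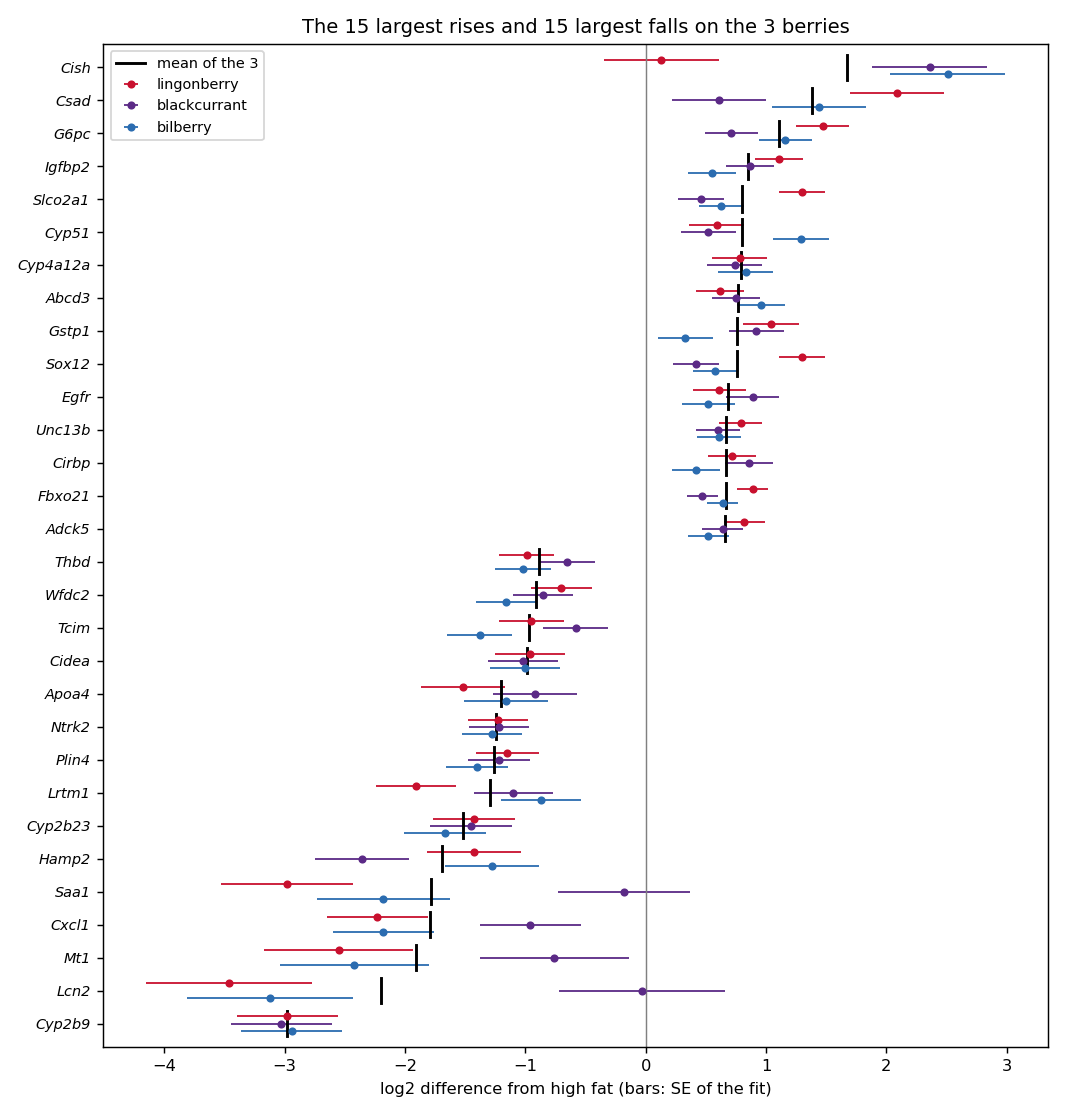
Log2 difference from high fat (horizontal axis) for the 15 largest rises and 15 largest falls, with a coloured point and SE bar for each berry and a black bar at their mean. The berry points lie close together for Cyp2b9, Ntrk2, Plin4 and Cidea, of which Ntrk2 and Cidea were detected in 2 of 18 berry livers and Cyp2b9 in 10. Blackcurrant is near 0 for Lcn2 (-0.03) and Saa1 (-0.18), and lingonberry is near 0 for Cish (0.13).

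The acute phase genes Lcn2, Saa1 and Serpina3n fell in the pool, with larger differences on lingonberry and bilberry than on blackcurrant. Lcn2, which encodes the iron-binding protein lipocalin 2, had levels of 7.66 to 10.46 (median 8.89) on high fat, 4.60 to 5.95 on lingonberry and 4.95 to 6.61 on bilberry, with no overlap. On blackcurrant it spread from 6.00 to 12.75 (median 8.49). The pooled difference was -2.20 ± 0.56 (adjusted p = 0.0442), from -3.46, -0.03 and -3.12 on lingonberry, blackcurrant and bilberry, and the berries were unequal (adjusted p = 0.00736). Saa1, serum amyloid A1, was 11.48 to 13.15 on high fat, 8.92 to 10.12 on lingonberry, 9.78 to 10.88 on bilberry and 10.02 to 14.49 on blackcurrant. It fell by 1.78 ± 0.45 as a pool (adjusted p = 0.0393), with differences of -2.98, -0.18 and -2.18 that were unequal (adjusted p = 0.00882), and a dim second probe gave -0.99 (adjusted p = 0.359). Serpina3n, an inhibitor of serine proteases, showed the same order at -0.88, -0.05 and -0.79 (pooled -0.57 ± 0.15, adjusted p = 0.0469, and 0.015 for the difference among berries).

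Of 24 acute phase genes these 3 fell, none rose, the median was -0.10, and 9 differed among the berries. The pooled calls were fragile: those of Lcn2, Saa1 and Serpina3n were lost without high-fat replicate 1, 2, 3 or 5 and without lingonberry replicate 2 (adjusted p up to 0.176, 0.145 and 0.169), with the pancreatic mean as a covariate (0.0669, 0.0598 and 0.0713), and in the mean of blackcurrant with either other berry (up to 0.35). Serpina3n was also not called without the chip block (0.0633), nor were Lcn2 and Saa1 without background correction (0.144 and 0.05). Neutrophil markers had a summed level of 8.22 to 9.89 on high fat, 7.30 to 9.22 on lingonberry, 8.50 to 10.05 on blackcurrant and 7.57 to 9.55 on bilberry, none of the 4 tested of 5 was called, and their part in these differences was not tested.

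Cxcl1, the chemokine that draws neutrophils, was lower on all berries. Its level was 8.36 to 10.80 (median 9.69) on high fat, 7.21 to 8.04 (median 7.47) on lingonberry, 7.94 to 10.18 (median 8.72) on blackcurrant and 6.93 to 8.0 (median 7.52) on bilberry. The lingonberry and bilberry livers were all below the high-fat range and 2 of 6 blackcurrant livers were. Cxcl1 fell by 1.79 ± 0.34 on the log2 scale (adjusted p = 0.00587), from -2.23, -0.96 and -2.18, and the inequality was not called (adjusted p = 0.13). It was the 1 gene called among 21 chemokine and neutrophil recruitment genes (median -0.21), and it was called whichever of the 8 arrays was left out, but not without the arrays of chip 5 (adjusted p = 0.0619). Its RefSeq promoter (GRCm38.p6, + strand, chr5:90890995-90891294, 300 bases around the start) is shown with 2 overlapping matches of the NF-κB consensus, searched on both strands, in capitals.
Cxcl1: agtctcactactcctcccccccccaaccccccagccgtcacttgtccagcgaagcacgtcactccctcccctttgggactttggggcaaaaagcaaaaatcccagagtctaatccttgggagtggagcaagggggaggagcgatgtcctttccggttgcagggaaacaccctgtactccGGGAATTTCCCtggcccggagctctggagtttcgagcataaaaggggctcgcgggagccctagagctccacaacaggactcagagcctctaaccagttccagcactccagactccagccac
The consensus was in 2779 of 32851 mouse promoters of this length (8.46%). Of the 53 called genes 44 had a promoter in the table, and it was in 4 of 19 that rose and 4 of 25 that fell. A gene counted if any of its promoters held the consensus, whereas 8.46% is a share of single promoters, so these measures are unlike. A match of letters is a description and does not show binding.

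Mt1, which encodes metallothionein 1, a small protein that binds zinc and copper, was among the most abundant genes that fell. Its level was 13.29 to 14.01 (median 13.63) on high fat, 8.88 to 12.66 (median 11.48) on lingonberry, 11.06 to 14.46 (median 13.13) on blackcurrant and 10.00 to 12.89 (median 11.14) on bilberry. High-fat livers were tightly grouped. Of the 18 berry livers 16 were below all of them, including every lingonberry and bilberry liver, and 1 blackcurrant liver was above them. Mt1 fell by 1.91 ± 0.50 (adjusted p = 0.0496, at the edge of the threshold), from -2.55, -0.76 and -2.42. Mt2, the neighbouring metallothionein gene, had a difference of -1.42 (adjusted p = 0.0752; -1.88, -0.43 and -1.94). Of 13 metallothionein and zinc genes Mt1 was the 1 called, and the median was 0.13. The call of Mt1 was lost without any 1 of the 6 high-fat arrays or without lingonberry replicate 2 (adjusted p up to 0.166), without the chip block (0.0542), without background correction (0.0534), with the authors' processed values (0.0502) and with the pancreatic mean as a covariate (0.074).

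The promoters of Mt1 (chr8:94178839-94179138) and Mt2 (chr8:94172368-94172667), both on the + strand of GRCm38.p6 from RefSeq, are shown because both genes carry several copies of the core of the metal response element, in capitals and searched on both strands as TGCGCNC or TGCACNC.
Mt1: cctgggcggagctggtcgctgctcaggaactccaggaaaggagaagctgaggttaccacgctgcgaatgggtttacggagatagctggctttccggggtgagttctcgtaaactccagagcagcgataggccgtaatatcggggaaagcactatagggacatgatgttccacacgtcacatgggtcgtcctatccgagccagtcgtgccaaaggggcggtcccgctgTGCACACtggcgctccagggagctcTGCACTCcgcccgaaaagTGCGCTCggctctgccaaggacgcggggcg
Mt2: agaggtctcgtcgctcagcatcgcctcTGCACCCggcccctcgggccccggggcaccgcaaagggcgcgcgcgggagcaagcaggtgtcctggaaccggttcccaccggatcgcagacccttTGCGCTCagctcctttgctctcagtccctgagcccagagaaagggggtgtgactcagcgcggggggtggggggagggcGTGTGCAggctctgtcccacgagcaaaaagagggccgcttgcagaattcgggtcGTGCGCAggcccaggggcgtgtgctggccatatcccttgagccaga
There were 3 matches in the Mt1 window and 4 in that of Mt2. At least 1 match was in 25.7% of the 32851 promoters and 3 or more were in 1.97%. Of the called genes with a promoter in the table, 5 of 19 that rose and 5 of 25 that fell held at least 1. Here too a gene counted if any of its promoters held a match, whereas 25.7% is a share of single promoters.

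Genes called in the pool could also hide opposite or unequal berries. Of the 234 called probes 23 were also called as differing among the berries, and for 3 the berries had different signs, including Cyp3a11 and Gna14. Cyp3a11, the main PXR target of mouse liver, was 10.61 to 11.16 on high fat, 12.48 to 13.35 on lingonberry, 9.37 to 10.93 on blackcurrant and 11.18 to 12.15 on bilberry. All lingonberry and bilberry livers lay above the high-fat range and all blackcurrant livers below the high-fat median, and the differences of 2.07, -0.53 and 0.70 were unequal (adjusted p = 8.18e-09). The pooled difference was 0.74 ± 0.17 (adjusted p = 0.0244). Gna14, a G protein subunit gene, had differences of -1.69, 0.08 and -0.75 (pooled -0.79 ± 0.19, adjusted p = 0.0296, and 2.12e-04 among berries). Nnmt, nicotinamide N-methyltransferase, had -1.58, -0.13 and -0.41 (pooled -0.71 ± 0.18, adjusted p = 0.0455, and 7.28e-04 among berries), and Chdh, choline dehydrogenase, 0.66, 0.26 and 0.22 (pooled 0.38 ± 0.07, adjusted p = 0.00502, and 0.00671 among berries).

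For these genes the pooled call rested on lingonberry: in the mean of blackcurrant and bilberry the differences were 0.08 for Cyp3a11, -0.34 for Gna14, -0.27 for Nnmt and 0.24 for Chdh, none of them called (adjusted p of 0.174 to 0.923). Chdh has a second tested probe, which gave 0.26 and was not called (adjusted p = 0.219), and those of Nnmt gave -0.73 and -0.85 (adjusted p = 0.058 and 0.102). The calls of Cyp3a11 and Gna14 were lost without high-fat replicate 2, 3 or 5, that of Cyp3a11 also without replicate 4 and that of Gna14 without replicate 1 (adjusted p up to 0.117 and 0.127). That of Nnmt was lost without any 1 of the 6 high-fat arrays or lingonberry replicate 2 (up to 0.148), and Nnmt and Chdh were not called without the chip block (0.0624 and 0.0514), nor was Chdh without the arrays of chip 2 (0.0746). Of 28 targets of CAR and PXR and other genes of drug metabolism, 2 rose (Cyp3a11 and Ugt2b35) and 2 fell (Cyp2b9 and Cyp2b23), 5 differed among the berries, and the median was -0.02.

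**Figure D4:**
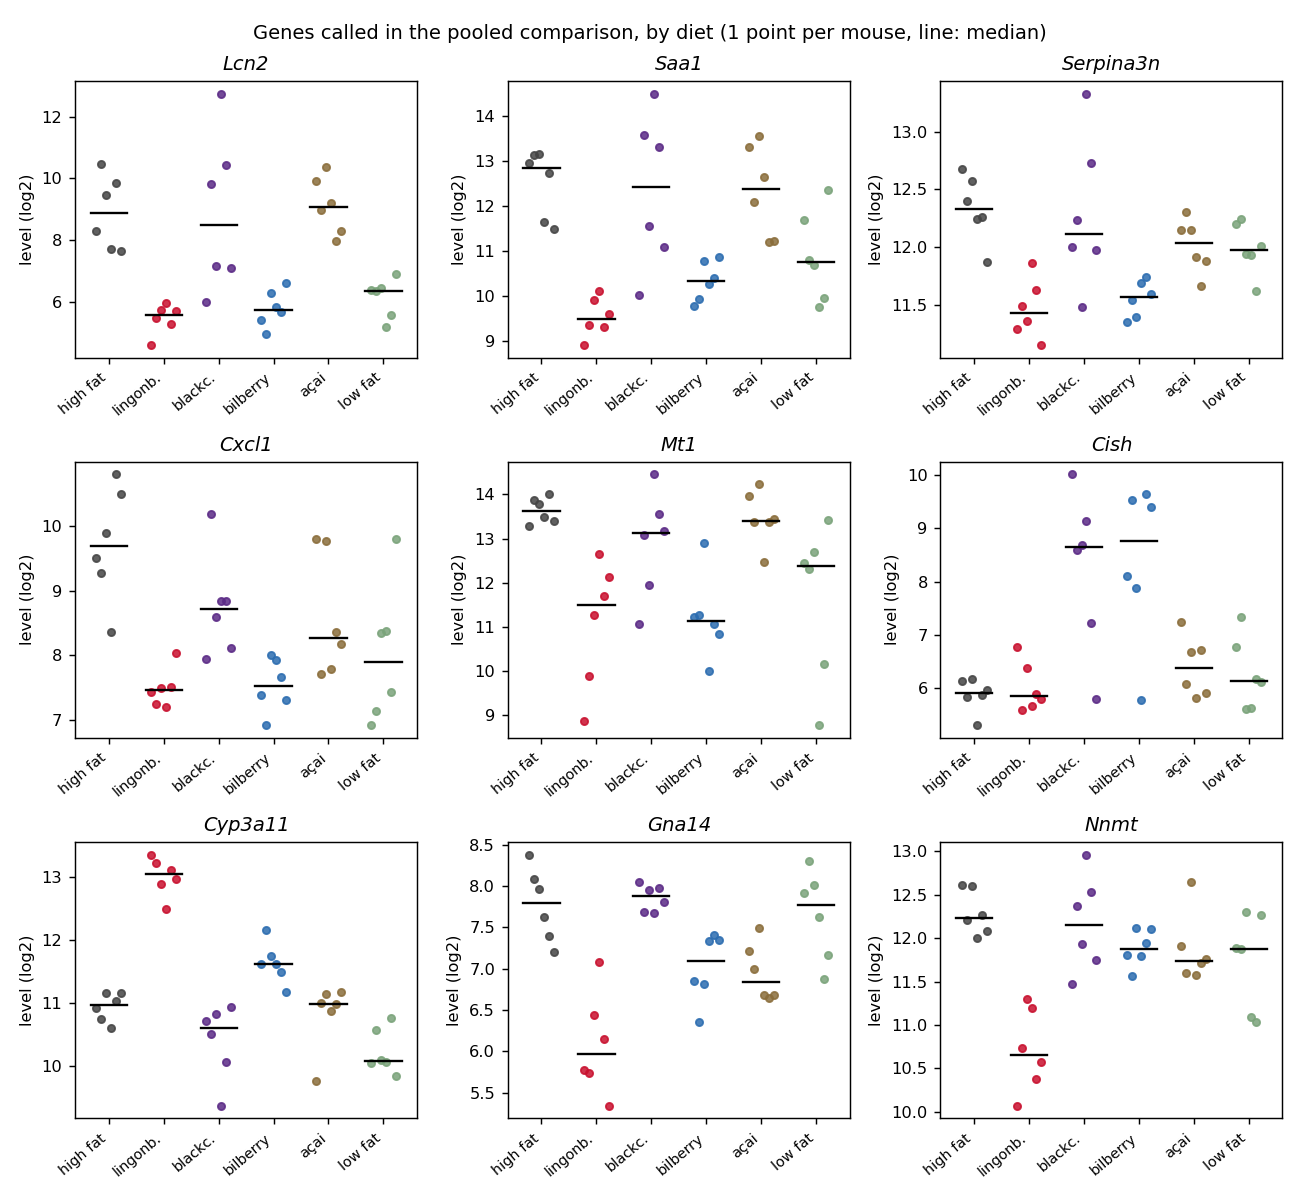
Normalized log2 level (vertical axis) by diet for 9 genes called in the pooled comparison, with 1 point per mouse and a line at each median. Lcn2, Saa1, Serpina3n, Cxcl1 and Mt1 have lower medians on lingonberry and bilberry than on blackcurrant, which spreads from 6.00 to 12.75 for Lcn2. Cish is high on most blackcurrant and bilberry livers, and Cyp3a11, Gna14 and Nnmt have the difference from high fat that is largest in size on lingonberry.

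Of 17 cold-inducible and heat shock genes 4 fell and 1 rose, beside 0.754% lower and 0.553% higher over all probes. The list median was -0.28. Bag3, a co-chaperone of HSP70, had levels of 9.13 to 9.93 on high fat, 8.76 to 9.61 on lingonberry, 8.72 to 9.37 on blackcurrant and 8.94 to 9.40 on bilberry, and it fell by 0.47 ± 0.10 (adjusted p = 0.0194). Every berry liver was below the high-fat liver of its chip. Dnajb1, an HSP40 gene, fell by 0.46 ± 0.11 (adjusted p = 0.0247; -0.44, -0.50 and -0.45), with 2 of 18 berry livers below all high-fat livers. Hspb8, a small heat shock protein gene, fell by 0.36 ± 0.09 (adjusted p = 0.0455; -0.58, -0.17 and -0.32), with a dimmer probe at -0.40 (adjusted p = 0.134). The collagen chaperone gene Serpinh1, named after its values were seen because it completes the count, fell by 0.44 ± 0.11 (adjusted p = 0.0484).

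Cirbp, which encodes an RNA-binding protein that mild cold induces, was the 1 that rose. Its level was 6.13 to 7.0 (median 6.42) on high fat and had medians of 7.29, 7.26 and 6.89 on lingonberry, blackcurrant and bilberry, and it rose by 0.67 ± 0.16 (adjusted p = 0.034). Hspa1b (-0.43, adjusted p = 0.0784) and Hspa8 (-0.28, adjusted p = 0.0729) were not called. The calls of Bag3 and Dnajb1 were lost without high-fat replicate 2, 3 or 5 (adjusted p up to 0.102 and 0.163), that of Hspb8 without replicate 1, 2, 3, 4 or 5 or lingonberry replicate 2 (up to 0.166) and that of Cirbp without replicate 3, 4, 5 or 6 (up to 0.163). Hspb8 was also not called without the chip block (0.0574) or with the pancreatic mean as a covariate (0.0574), and Cirbp without background correction (0.0516).

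Stress-responsive genes outside this list fell or rose singly. Tsc22d3, the glucocorticoid-induced leucine zipper gene, had a level of 10.14 to 10.92 (median 10.78) on high fat and medians of 10.14, 10.17 and 9.60 on the berries. It fell by 0.79 ± 0.19 (adjusted p = 0.0296) at its brightest probe and by 0.83 at a second (adjusted p = 0.0247). With the p53 target Ccng1 (-0.26 ± 0.07, adjusted p = 0.0462) it made up the 2 falls among 24 glucocorticoid, p53 and fasting responsive genes, of which none rose (median -0.20). Other Ccng1 probes of similar brightness gave -0.26 and -0.35 and were not called (adjusted p = 0.117 and 0.124). A dim further probe of Tsc22d3 gave -0.27 (adjusted p = 0.461). Atf4, the transcription factor gene of the integrated stress response, rose by 0.54 ± 0.13 (adjusted p = 0.0283; 0.58, 0.52 and 0.51) and by 0.61 at a second probe (adjusted p = 0.0125), as the 1 gene called among 23 of endoplasmic reticulum stress (median -0.12). The call of Tsc22d3 was lost without high-fat replicate 1, 2, 3, 4 or 5 (adjusted p up to 0.108), that of Ccng1 without replicate 2, 3, 4 or 5 or lingonberry replicate 2 (up to 0.207) and that of Atf4 without replicate 2, 3, 4 or 5 (up to 0.118). Without the chip block none of the 3 was called (0.0719, 0.294 and 0.063).

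Among the remaining large falls, Lrtm1, which encodes a membrane protein with leucine-rich repeats, had levels of 5.67 to 7.11 (median 6.98) on high fat and medians of 4.45, 5.51 and 5.80 on lingonberry, blackcurrant and bilberry (-1.29 ± 0.27, adjusted p = 0.0134), with 2 of 6 lingonberry livers above detection and a dimmer probe at -0.66 (adjusted p = 0.0681). Thbd, thrombomodulin, an endothelial anticoagulant receptor, fell by 0.89 ± 0.18 (adjusted p = 0.0125), with 13 of 18 berry livers below all high-fat livers. Tcim, whose human counterpart is a regulator of Wnt signalling, fell by 0.97 ± 0.22 (adjusted p = 0.0209) and was lower in every berry liver than in the high-fat liver of its chip. Wfdc2, a secreted protein with a protease-inhibitor fold, fell by 0.91 ± 0.21 (adjusted p = 0.0235), with 4 of 18 berry livers below all high-fat livers. The berry with the lowest level varied: Lrtm1 was lowest on lingonberry (-1.91) and Tcim and Wfdc2 on bilberry (-1.38 and -1.16), and none of these inequalities was called (adjusted p of 0.15 to 0.564). Their calls were lost without high-fat replicate 2 or 5 (adjusted p up to 0.0684, 0.0911, 0.0942 and 0.123 in the order given), that of Wfdc2 also without replicate 4, and those of Tcim and Wfdc2 without the chip block (0.0574 for both).

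Other lists held 1 called gene each, beside a called share of 1.31% over all probes. Lgals1, galectin-1, was 7.74 to 10.16 (median 9.39) on high fat and had medians of 8.36, 7.86 and 8.59 on lingonberry, blackcurrant and bilberry (-0.86 ± 0.17, adjusted p = 0.0108), the 1 of 6 galectins called. For Lgals1 2 of 18 berry livers were below all high-fat livers. Hsd17b10, a mitochondrial dehydrogenase gene, fell by 0.50 ± 0.11 (adjusted p = 0.0138), the 1 of 18 steroid dehydrogenase and Akr1c genes called. Cisd1, which encodes the outer mitochondrial membrane protein mitoNEET, fell by 0.40 ± 0.10 (adjusted p = 0.0305), with 17 of 18 berry livers below all high-fat livers, the 1 of 31 genes of the oxidative phosphorylation list called. Psmd2, a proteasome subunit gene, rose by 0.43 ± 0.11 at a level near 5 (adjusted p = 0.0455), the 1 of 23 proteasome genes. Lyve1, a marker of sinusoidal and lymphatic endothelium, fell by 0.78 ± 0.19 (adjusted p = 0.0305), from 6.62 to 7.72 on high fat to 5.60 to 6.94 on the berries, while the other 5 endothelial markers tested were not called, and the median over all 6 was 0.04.

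The calls of Lgals1 and Hsd17b10 were lost without high-fat replicate 2 or 5 (adjusted p up to 0.0806 and 0.0663) and those of Lyve1 and Cisd1 without replicate 2, 3, 4 or 5 (up to 0.172 and 0.127). That of Psmd2 was lost without replicate 2, 3, 4, 5 or 6, lingonberry replicate 2 or blackcurrant replicate 4 (up to 0.171), without the chip block (0.133) and under 5 other settings. No gene was called in the lists of AhR targets, interferon response and antigen presentation, bile acid synthesis and transport, urea cycle and amino acid breakdown, circadian clock, retinoid metabolism, cell cycle or cytosolic ribosomal proteins, whose medians ran from -0.12 to 0.05. Over all probes tested 1.31% were called, so the lack of a call does not set such a list apart. Among cell markers only Lyve1 was called.

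**Figure D5:**
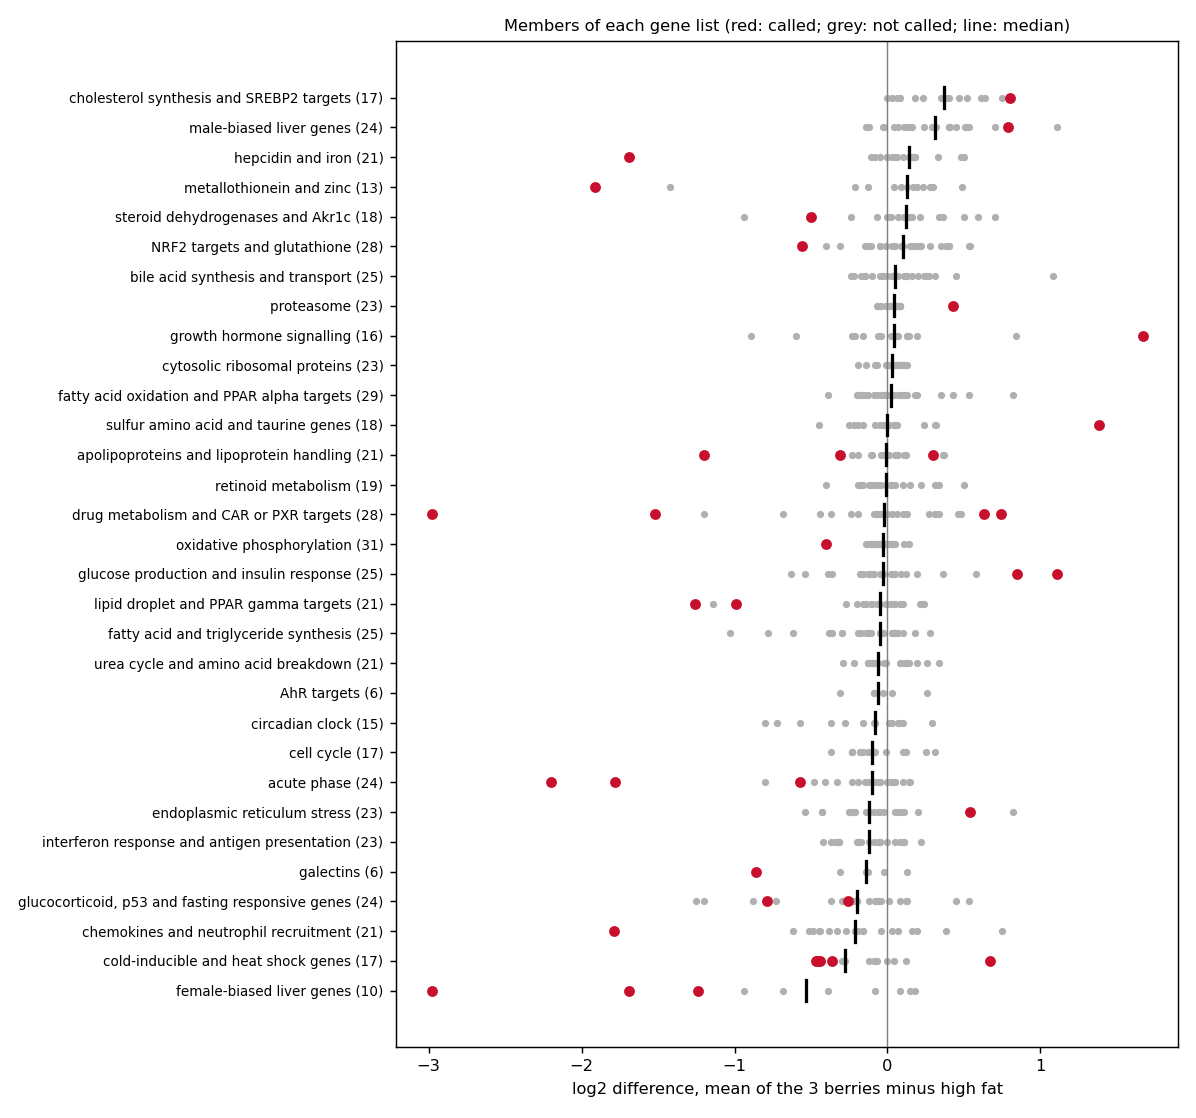
Pooled log2 difference from high fat (horizontal axis) of every tested member of 31 gene lists (number tested in brackets), with called members in red, others in grey and a line at the list median. Medians run from -0.53 for female-biased to 0.37 for cholesterol synthesis genes, and most lists hold no more than 1 or 2 called members.

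Some called genes outside the rule for naming are given here, chosen by hand after their values were seen from among those with small p-values. They are not the full set, as others with p-values as small or smaller, such as Tdrkh (0.53, adjusted p = 0.0017), are left out. Txnip, which encodes a thioredoxin inhibitor that glucose induces, rose by 0.65 ± 0.10 (adjusted p = 7.20e-04; 0.90, 0.52 and 0.54) and by 0.58 at a second probe, with every berry liver above the high-fat liver of its chip at the first. Acer2, an alkaline ceramidase gene, fell by 0.82 ± 0.13 (adjusted p = 0.0014; -0.87, -0.65 and -0.95) with the same completeness. Ccn2, a matrix-associated growth factor gene that TGFβ and YAP induce, fell by 0.84 ± 0.15 and 0.67 ± 0.14 at its 2 probes (adjusted p = 0.00271 and 0.0149). Samd9l, an interferon-induced gene, fell by 0.59 ± 0.10 (adjusted p = 0.0017), Anxa2, annexin A2, by 0.82 ± 0.16 (adjusted p = 0.00546), and Gja1, connexin 43, by 0.78 ± 0.15 (adjusted p = 0.00599). Cyp2c67, a P450 gene, rose by 0.80 ± 0.16 (adjusted p = 0.00619) to nearly the same extent on each berry (0.82, 0.81 and 0.77). How these genes respond to leaving out arrays is not given here.

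Against açai, the fourth fruit tested at the same dose, the 3 Nordic berries differed at 756 probes (4.22%), 289 higher (1.61%) and 467 lower (2.61%). The contrast holds the same berry arrays as before and no high-fat array, although the high-fat arrays enter the fit through its variance and chip terms. Of the called genes named above Cidea differed most: it was 6.91 to 8.77 on açai, where all 6 livers had it detected, and the Nordic berries differed from that by -3.38 ± 0.23 (adjusted p = 4.22e-11). Cyp2b9 was 7.35 to 8.70 on açai, above every Nordic berry liver, with a difference of -2.97 ± 0.34 (adjusted p = 1.48e-06). Plin4 (-1.93 ± 0.21, adjusted p = 4.88e-07), Tceal8 (-1.60 ± 0.13, adjusted p = 1.73e-09), Lgals1 (-1.75 ± 0.17, adjusted p = 1.04e-07), Cyp2b23 (-1.88 ± 0.28, adjusted p = 5.19e-05) and Apoa4 (-1.78 ± 0.28, adjusted p = 1.78e-04) were lower as well. Fbxo21 (0.76 ± 0.10, adjusted p = 1.58e-05) and Igfbp2 (1.08 ± 0.16, adjusted p = 7.83e-05) were higher. From high fat the differences of Cidea, Plin4 and Tceal8 were smaller in size, at -0.99, -1.26 and -0.81. So were those of Lgals1, Cyp2b23 and Apoa4, at -0.86, -1.52 and -1.20. For these genes part of the gap to açai is thus a fitted level on açai above that on high fat. The rise of Igfbp2 was also smaller against high fat (0.85). On açai Cyp2b9 and Fbxo21 differed from high fat by -0.01 and -0.09.

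For another set of genes no difference between the Nordic berries and açai was called, which does not show that they are equal. G6pc differed by 0.29 ± 0.18 (adjusted p = 0.426), Csad by 0.11 ± 0.32 (adjusted p = 0.912), Cyp51 by 0.05 ± 0.19 (adjusted p = 0.936), Bag3 by -0.03 ± 0.10 (adjusted p = 0.937), Dnajb1 by 0.05 ± 0.11 (adjusted p = 0.878) and Cxcl1 by -0.67 ± 0.34 (adjusted p = 0.303). For Cxcl1 the açai livers ran from 7.72 to 9.80 and overlapped the ranges of high fat and of each Nordic berry.

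Against the low-fat livers the berries differed at 1043 probes (5.82%). For some of the genes named above no difference was called, which does not show that they were at the low-fat level. Plin4 was 4.30 to 4.99 on low fat and 0.57 ± 0.21 higher on the berries, a difference not called (adjusted p = 0.109). For Tceal8 the difference was 0.02 ± 0.13 (adjusted p = 0.966), for Igfbp2 -0.06 ± 0.16 (adjusted p = 0.90), for Apoa4 -0.10 ± 0.28 (adjusted p = 0.90) and for Mt1 0.10 ± 0.50 (adjusted p = 0.948). Lgals1 stayed 1.25 ± 0.17 above the low-fat level (adjusted p = 1.71e-05). Ntrk2 and Hamp2, in contrast, had low-fat levels of 5.34 to 6.71 and 11.43 to 13.25. The berries differed from those by -1.41 ± 0.20 (adjusted p = 2.15e-05) and -2.59 ± 0.32 (adjusted p = 2.01e-06). Lyve1 and Bag3 were also lower than on low fat (-0.77 ± 0.19 and -0.45 ± 0.10, adjusted p = 0.0117 and 0.00693), and Ugt2b35 was higher (0.76 ± 0.11, adjusted p = 3.88e-05).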

How the data were processed

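RNA from 36 mouse livers was hybridised to Illumina MouseWG-6 v2.0 arrays, 6 mice per diet on 6 chips. The deposited raw table holds a bead intensity and a detection p-value for every probe on each array, and the authors' deposited table of processed values is on a log2 scale. The sources used here do not state its normalization, and its values lay within 0.0501 of those used here. Intensities were background corrected and quantile normalized with neqc (limma 3.58.1, R 4.3.3, offset 16). Of 45281 probes with a detection p, 17907 were detected (p below 0.05) on at least 6 arrays and were tested, of which 15409 had 1 gene symbol in the platform annotation. A linear model with diet and chip was fitted to all 36 arrays, with eBayes moderation, and p-values were Benjamini-Hochberg adjusted over all tested probes. The pooled contrast weights each berry equally. A change in each berry was tested with the largest of the 3 p-values where the signs were equal, and differences among berries with an F test.

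The labels name the chip of each array, which pairs arrays across diets. Deviations from the diet means correlated at 0.14 on average within a chip, at -0.03 between chips, and above 0.1 for 50% of 90 same-chip pairs. Raw intensity medians of the arrays ran from 81.2 to 103, and their bearing on precision was not tested. The number of arrays limits the precision.

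The members and gene lists were chosen with earlier results of these data known. Genes were named by rule if among the 15 largest called rises or falls with the same sign on each berry and on at least 5 chips, among up to 4 leading members of a list, leading in the test of each berry, or among up to 6 called genes with the strongest difference among berries. A list counts each gene at its brightest probe. Differences not above background on all arrays of a diet are also given with that diet at its lowest detected signal. The models were tested on simulated data. Alternatives were the fit without chip, with the 24 arrays only, other background corrections, the authors' values, other detection filters, other variance models, a pancreatic covariate, and leaving out chips, arrays or berries. Promoter sequences are from RefSeq (GRCm38.p6). Probe and protein sequences were not used here.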

Additional observations from a re-analysis of the deposited data

Results flagged for a closer look

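For 10 of the 53 genes named by rule and called in the pooled comparison, the difference from high fat itself varied among lingonberry, blackcurrant and bilberry in an F test of the fit. The adjusted p of that test was 8.18e-09 for Cyp3a11, 2.12e-04 for Gna14, 7.28e-04 for Nnmt and 0.00671 for Chdh, where the difference was largest in size on lingonberry. For Cyp3a11 and Gna14 bilberry lay between the other berries, and its livers did not overlap those on blackcurrant. It was 0.00736 for Lcn2, 0.00882 for Saa1 and 0.015 for Serpina3n, where the difference was smallest in size on blackcurrant. It was 0.00676 for Cish, which was near its high-fat level on lingonberry, and 0.0185 and 0.0272 for Sox12 and Slco2a1, which were highest on lingonberry.

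Among 212 groups of 6 livers (53 genes on 4 diets), 12 (5.66%) held a liver whose gap to the nearest other one exceeded Dixon's critical share of the group's range, and chance gives about 1 in 20. In bilberry, Cidea was 5.30 in replicate 3 against 4.20 to 4.38 in the others (gap 0.836 of the range), and Cisd1 in the same liver was 9.98 against 10.42 to 10.60 (0.710). Bilberry replicate 2 was low for Csnk1g3, at 7.29 against 7.51 to 7.63 (0.647), and high for Slco2a1, at 8.05 against 7.40 to 7.63 (0.646). Blackcurrant replicate 3 was low for Apom, at 12.37 against 12.79 to 12.95 (0.724), for Gstp1, at 9.42 against 10.10 to 10.46 (0.654), and for Igfbp2, at 10.46 against 10.71 to 10.76 (0.833). Bilberry replicate 2 and blackcurrant replicate 3 are also livers with high pancreatic marker levels, and whether the values are related was not tested. Cidea was 5.47 in lingonberry replicate 4 against 4.21 to 4.39 (0.857), and Cxcl1 8.04 in lingonberry replicate 6 against 7.21 to 7.51 (0.639). Ntrk2 was 4.89 in blackcurrant replicate 6 against 4.31 to 4.52 (0.638) and Unc13b 6.35 in blackcurrant replicate 4 against 6.77 to 7.01 (0.636). Tsc22d3 was 10.14 in high-fat replicate 4 against 10.68 to 10.92 in the other high-fat livers (0.692).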

How the results depend on the processing

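Without the chip as replicate block the pooled comparison with high fat had 135 calls in place of 234, the differences among berries 186 in place of 332, the comparison with low fat 600 in place of 1043 and that with açai 457 in place of 756. With all probes tested, the pooled comparison had 111 calls and the differences among berries 160. The remaining settings of background correction, authors' values, variance model, detection filter and covariate left each of these counts within 1.5 times. Calls of single genes moved more. Of the 53 named called genes 11 were lost in the fit of the 24 arrays only, among them Cish, Cyp4a12a, Lcn2 and Cidea. With a trended and robust variance 14 were lost, and with all probes tested 29. Leaving out 1 chip or 1 array gave 34 to 254 calls for the pooled comparison, with 34, 71 and 75 without chip 2, 3 and 5, and 57 and 66 without high-fat replicate 2 and 5. It gave 61 to 362 for the differences among berries, with 61 without chip 5, 175 without blackcurrant replicate 4 and 188 without lingonberry replicate 2. It gave 630 to 1042 against low fat and 346 to 769 against açai. The test of a change in each berry gave 1 to 3 calls, and requiring a call on each berry separately gave 7. The mean of the berries other than lingonberry had 85 calls and that of the berries other than blackcurrant 362. Of the 53 named called genes 8 were called in every alternative run, and none changed direction. Sizes of dim genes depended on the background: Cyp2b9 ran from -3.36 to -1.72 over 27 alternatives. Array signal near background limits the sizes for Cyp2b9, Cyp2b23, Ntrk2, Cidea, Plin4 and Lrtm1. The cause of these shifts was not tested.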
